A study of Mus musculus with 6 samples.

Results

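The 10 genes described here were *Nfe2l2*, *Keap1*, *Nqo1*, *Hmox1*, *Gclc*, *Gclm*, *Srxn1*, *Gsr*, *G6pdx* and *Osgin1*, the mRNAs of the NRF2 pathway and its antioxidant targets. They were chosen by name from the 54532 genes of the deposited table, and all 10 were found. NRF2, the protein of *Nfe2l2*, is a transcription factor that the adaptor KEAP1 holds in the cytoplasm and passes to a ubiquitin ligase. Oxidants and electrophiles modify KEAP1, after which NRF2 escapes degradation, pairs with a small MAF protein and binds antioxidant response elements in DNA. Its targets make glutathione, reduce oxidized proteins and quinones, degrade heme and supply NADPH, and in the lung this program is known for guarding the epithelium against inhaled and inflammatory oxidants.

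RNA-seq was performed on MLE12 cells, a transformed mouse cell line of the alveolar epithelium. The 3 Ctrl shRNA samples received empty lentivirus at an MOI, the number of infectious particles per cell, of 50. The 3 knockdown samples (Idh3α shRNA + Slc25a1 shRNA) received 2 silencing lentiviruses at an MOI of 50 each, one against the catalytic subunit of mitochondrial isocitrate dehydrogenase and one against the mitochondrial citrate carrier. The comparison asks what changes when mitochondrial citrate can neither be oxidized nor exported as before. The virus was removed after 16 h and the cells were grown for 80 h more. The difference in total virus dose and the knockdown itself cannot be told apart. All samples came from a single cell line, and nothing in the labels says that they were separate cultures, so the p-values measure only the spread between these samples.

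The total count ranged from 27273502 to 28535653 per library. *Slc25a1* was lower in all 3 knockdown samples (mean 67.2 ± 3.67 CPM, SD, n = 3) than in the controls (103 ± 4.78 CPM, SD, n = 3), and *Idh3a* likewise (57.3 ± 1.59 against 103 ± 29.7 CPM, SD, n = 3 each), where CPM is the count scaled to a library of common, normalized size. Of the 10 lung epithelial markers, 7 passed the count filter, among them *Nkx2-1* with a mean of 314 CPM, while *Krt18* had 0.260 CPM. Among alveolar type 2 markers, *Abca3* had 130 CPM on average, *Sftpc* had 47.3 CPM and *Sftpd* had no count. In Ctrl shRNA replicate 2, *Sftpc* was at 97.3 CPM, against at most 50.9 CPM in the other 5 libraries, while *Abca3* was at its lowest, 110 CPM. Ctrl shRNA replicate 2 stood apart: mitochondrially encoded genes took 6.49% of its counts against 1.57% to 1.80% in the others, and 16681 genes had a count against 19902 or more. Of 7 fibroblast markers, *Dcn* had 1211 CPM in that library and at most 354 CPM in the other 5, and the summed level was 1235 against 317 to 377 CPM. Of the other 6, *Col1a1* had 20.3 CPM there, within the range of 16.5 to 22.8 CPM over all libraries, and *Pdgfra* was at its lowest, 2.23 CPM. *Thy1* and *Lum* were at their highest there, 0.658 and 0.709 CPM against at most 0.355 and 0.383 CPM elsewhere, and *Col1a2* and *Col3a1* had no count. Its part in the results was examined by leaving it out and by weighting it down, and the members are given with and without it. Without it, the log2 fold changes were -0.66 for *Slc25a1* and -0.60 for *Idh3a* (edgeR adjusted p = 0.00649 and 0.0142), against -0.62 and -0.85 with all libraries (edgeR adjusted p = 0.104 and 0.254).

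The DNA just upstream of the start sites of several members is shown because NRF2 acts there. The RefSeq promoter table (GRCm38.p6, 250 bases before to 50 after each start) held 7 of the 10 genes, and *Hmox1*, *Gclc* and *Gsr* had no entry. The core of the antioxidant response element, TGACNNNGC on either strand, was present in 4 of these 7 promoters and in 12.4% of all 32851 promoters of this length. The AP-1 site TGANTCA, which can share its first letters with that core, was present in 2 of 7 and in 7.81% of all. Capitals mark the match, and the sequences run 5′ to 3′ on the strand of the gene, so that a core on the opposite strand appears as its reverse complement.
*Nfe2l2*, chr2:75704885-75704913, minus strand, core 240 bases before the start: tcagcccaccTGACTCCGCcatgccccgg
*Gclm*, chr3:122245413-122245441, plus strand, core on the opposite strand: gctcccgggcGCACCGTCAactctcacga
*G6pdx*, chrX:74428919-74428947, minus strand, core on the opposite strand: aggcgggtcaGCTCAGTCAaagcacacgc
*Srxn1*, chr2:152105469-152105495, plus strand, AP-1 site 45 bases before the start: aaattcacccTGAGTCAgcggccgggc
*Osgin1*, chr8:119437040-119437066, plus strand, AP-1 site 97 bases before the start: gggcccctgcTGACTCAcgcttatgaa
The *Srxn1* promoter also held a second AP-1 site, and a core beginning 28 bases past the start. The stretches printed for *Osgin1* and *G6pdx* lay inside these genes as the deposited coordinates bound them. A match is a run of letters and not a measured binding site. The 4 promoters with the core belonged to *Nfe2l2*, *Gclm*, *G6pdx* and *Srxn1*, and those of *Keap1* and *Nqo1* held neither motif in this window.

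The 10 mRNAs differed more than 10-fold in level. Per kilobase of gene length, *Nfe2l2* was the most abundant, with a mean of 164 CPM per kb over the 6 libraries (lowest 113, highest 255). *Gsr*, the glutathione reductase, followed with 105 CPM per kb (84.6 to 122). *Gclc*, *Hmox1*, *Srxn1* and *Nqo1* formed a middle group with means of 49.3, 47.5, 42.2 and 39.7 CPM per kb, and the ranges of neighbours in this group overlapped. *G6pdx*, *Osgin1*, *Keap1* and *Gclm* were lower, at 26.7, 23.3, 17.97 and 14.6 CPM per kb, and again the range of each overlapped that of the next. *Gsr* was above *Gclc*, and *Nqo1* above *G6pdx*, without overlap of their ranges.

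With all 6 libraries, 7 of the 10 members had every knockdown sample above every control, namely *Hmox1*, *Gclc*, *Gclm*, *Srxn1*, *Gsr*, *G6pdx* and *Osgin1*; 14.7% of all genes tested showed that order. Their fold changes were modest, from 1.19 to 1.41. By the quasi-likelihood test of edgeR, none of the 10 reached a Benjamini-Hochberg adjusted p under 0.05, where 0.0588% of the 15307 genes tested were called higher and 0.00653% lower. On simulated data edgeR recovered 31.5% of genes changed 2-fold with all libraries, so the lack of calls does not show a lack of change. At an unadjusted p under 0.05 the same 7 members were higher and 0 were lower, against 7.47% and 6.65% of all genes. DESeq2 called 4 members higher and 0 lower with all libraries, against 1.55% and 0.958% of the genes it tested. It made more false calls than its threshold allows on data simulated with these group sizes, in which no library stood apart. Differences above 0 were seen in 9 of 10 members, against 48.7% of all genes. Among the 9, those of *Nfe2l2* and *Keap1*, 0.05 and 0.04 on the log2 scale, were smaller than their standard errors of 0.33 and 0.10. The median log2 fold change of the members was 0.27, and that of all genes tested was -0.01.

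Without Ctrl shRNA replicate 2, *Nfe2l2*, *Gclm*, *Srxn1* and *Osgin1* rose in knockdown cells, by 1.34 to 1.45-fold, at an adjusted p under 0.05 from the same edgeR test. These were 4 of 10 members, against 1.11% of the 15709 genes tested in that fit called higher, and 0 members were called lower, against 0.675%. In 9 of the 10 members every knockdown sample was above both remaining controls, an order that 20.3% of all genes tested showed. At an unadjusted p under 0.05, 8 members were higher and 0 lower, against 9.54% and 10.3% of all genes. DESeq2 on these 5 libraries called 5 members higher, the same 4 and *Gclc*, against 3.93% of its genes called higher and 2.65% lower, with 0 members lower. Limma with sample quality weights, which kept Ctrl shRNA replicate 2 at a weight of 0.101, called 7 members higher and 0 lower, against 8.67% and 6.34%.

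**Figure D1:**
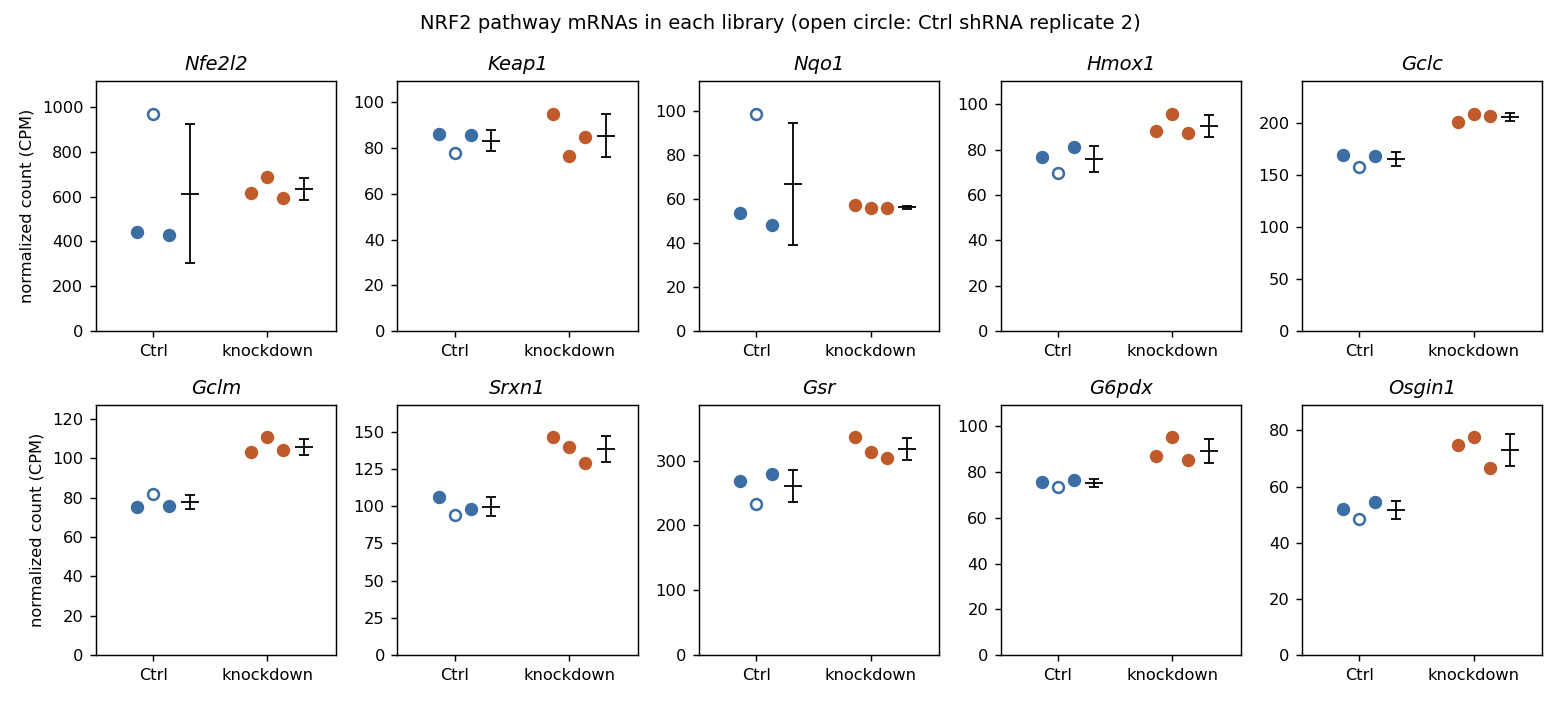
Normalized counts (CPM, vertical axes from 0) of the 10 mRNAs in the 3 Ctrl shRNA and 3 knockdown libraries, one point per library, with the group mean ± SD beside them. The knockdown points lie above all control points in 7 panels, and the open circle, Ctrl shRNA replicate 2, is far above the other controls for *Nfe2l2* and *Nqo1*, at 969 and 98.9 CPM.

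*Nfe2l2* (ENSMUSG00000015839, chromosome 2 of GRCm38, 75675513 to 75704641, minus strand) encodes the transcription factor itself. It measured 440, 969 and 430 CPM in controls 1, 2 and 3, against 616, 689 and 594 CPM after knockdown. The knockdown samples were above controls 1 and 3 and below control 2, so the groups overlapped. With all libraries the means were 613 ± 308 and 633 ± 49.8 CPM (SD, n = 3 each), a log2 fold change of 0.05 (standard error, SE, 0.33; edgeR adjusted p = 0.956). The sign was negative in the fits without Ctrl shRNA replicate 1, Ctrl shRNA replicate 3 or knockdown replicate 2, each of which kept control 2. Once Ctrl shRNA replicate 2 was excluded, the difference was 0.53 on the log2 scale (SE 0.08, edgeR adjusted p = 0.0194), the largest among the members in that fit. A difference in the number of cells carrying a transcript and one in its amount per cell cannot be told apart in these bulk libraries.

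*Keap1* (ENSMUSG00000003308, chromosome 9, 21229730 to 21239361, minus strand) encodes the cytoplasmic inhibitor of NRF2. It measured 86.1, 77.8 and 85.8 CPM across controls, against 95.0, 76.6 and 84.7 CPM after knockdown. The groups overlapped, and Ctrl shRNA replicate 2 was close to the rest. The log2 fold change was 0.04 (SE 0.10, edgeR adjusted p = 0.872), and without Ctrl shRNA replicate 2 it was -0.02 (SE 0.09, edgeR adjusted p = 0.929). *Keap1* shares 510 of its 4693 exonic bases with an antisense gene that had a mean of 92.0 counts, against 2388 for *Keap1*; no source states whether strand was used in counting.

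The enzymes of glutathione synthesis were examined next. *Gclc* (ENSMUSG00000032350, chromosome 9, 77754535 to 77794485) encodes the catalytic subunit of glutamate-cysteine ligase, which makes the first bond of glutathione. It measured 170, 157 and 169 CPM across controls, against 201, 209 and 207 CPM after knockdown, with no overlap. The log2 fold change was 0.32 (SE 0.07, edgeR adjusted p = 0.245), and 0.27 without Ctrl shRNA replicate 2 (SE 0.06, edgeR adjusted p = 0.0804). DESeq2 called it with all libraries (adjusted p = 0.0290).

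*Gclm* (ENSMUSG00000028124, chromosome 3, 122245557 to 122270732) encodes the modifier subunit of the same enzyme. It measured 75.4, 82.0 and 75.9 CPM across controls, against 103, 111 and 104 CPM after knockdown. Every knockdown sample was above every control, Ctrl shRNA replicate 2 included. The log2 fold change was 0.45 (SE 0.07, edgeR adjusted p = 0.174) and, without that library, 0.48 (SE 0.07, edgeR adjusted p = 0.0155). *Gclm* had the smallest adjusted p of the members in both edgeR fits, and DESeq2 also called it with all libraries (adjusted p = 0.000519).

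*Gsr* (ENSMUSG00000031584, chromosome 8, 33652523 to 33698163) encodes glutathione reductase, which regenerates reduced glutathione from its disulfide at the cost of NADPH. Its values were 269, 233 and 280 CPM across controls, against 336, 314 and 304 CPM after knockdown. The groups did not overlap, and the log2 fold change was 0.29 (SE 0.10, edgeR adjusted p = 0.340). *G6pdx* (ENSMUSG00000031400, chromosome X, 74409483 to 74429194, minus strand) encodes glucose-6-phosphate dehydrogenase, the entry enzyme of the pentose phosphate pathway and a source of that NADPH. It measured 75.6, 73.4 and 76.8 CPM across controls, against 87.3, 95.2 and 85.3 CPM after knockdown, a log2 fold change of 0.25 (SE 0.07, edgeR adjusted p = 0.316). Without Ctrl shRNA replicate 2 the changes were 0.20 for *Gsr* and 0.22 for *G6pdx*, with adjusted p of 0.173 and 0.161 in edgeR. The value of *G6pdx* is uncertain, since it shares 418 of its 3080 exonic bases with *Ikbkg* on the other strand, whose mean count was 2806 against 2335 and whose log2 fold change was 0.29.

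*Srxn1* (ENSMUSG00000032802, chromosome 2, 152105516 to 152111376) encodes sulfiredoxin, which repairs overoxidized peroxiredoxins. It measured 107, 93.8 and 98.5 CPM across controls, against 146, 140 and 129 CPM after knockdown, without overlap. The log2 fold change was 0.47 (SE 0.09, edgeR adjusted p = 0.179), and 0.42 without Ctrl shRNA replicate 2 (SE 0.08, edgeR adjusted p = 0.0380). *Osgin1* (ENSMUSG00000074063, chromosome 8, 119434124 to 119446256) encodes a growth inhibitor induced by oxidative stress. It measured 52.2, 48.3 and 54.7 CPM across controls, against 74.9, 77.5 and 66.7 CPM after knockdown, again without overlap. Its log2 fold change of 0.50 (SE 0.09, edgeR adjusted p = 0.180) was the largest of the members with all libraries, and it was 0.44 without Ctrl shRNA replicate 2 (SE 0.08, edgeR adjusted p = 0.0398). DESeq2 called both genes with all libraries, at adjusted p of 0.00753 and 0.0101.

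*Hmox1* (ENSMUSG00000005413, chromosome 8, 75093621 to 75100589) encodes heme oxygenase 1, which opens the heme ring and releases iron. It measured 76.6, 69.8 and 81.1 CPM across controls, against 88.3, 95.9 and 87.2 CPM after knockdown. The groups did not overlap, but the change was small, 0.25 on the log2 scale (SE 0.09, edgeR adjusted p = 0.339) and 0.19 without Ctrl shRNA replicate 2 (SE 0.07, edgeR adjusted p = 0.201). *Hmox1* was not called under any of the 17 alternatives.

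*Nqo1* (ENSMUSG00000003849, chromosome 8, 107388225 to 107403206, minus strand) encodes the quinone reductase that is widely read as a marker of NRF2 activity. It measured 53.9, 98.9 and 48.3 CPM across controls, against 57.2, 56.0 and 56.0 CPM after knockdown. As for *Nfe2l2*, control 2 was the highest of all libraries, and the knockdown samples lay above the other 2 controls. The log2 fold change turned from -0.25 with all libraries (SE 0.27, edgeR adjusted p = 0.651) to 0.13 without Ctrl shRNA replicate 2 (SE 0.08, edgeR adjusted p = 0.364), and neither passed the threshold.

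**Figure D2:**
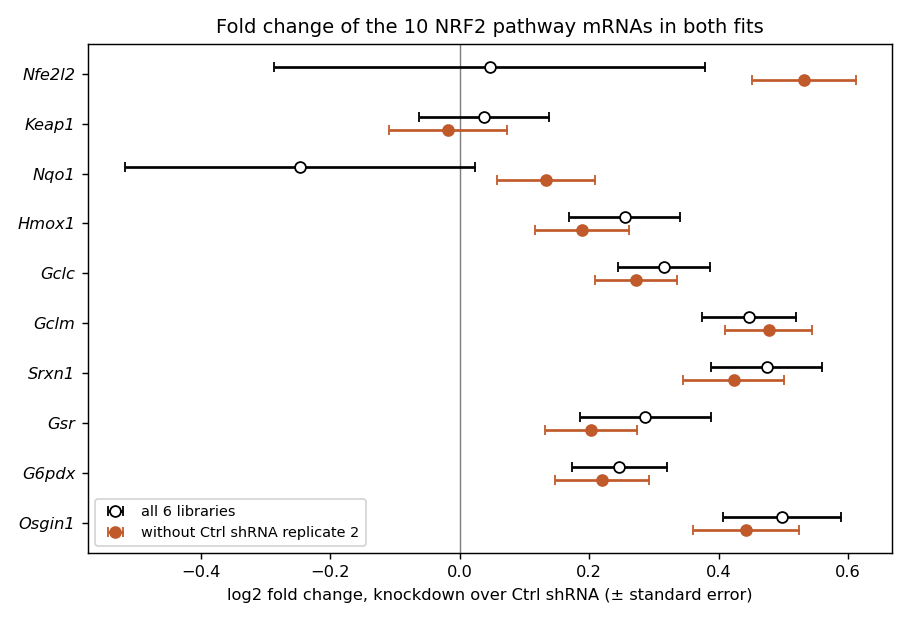
Log2 fold change of knockdown over Ctrl shRNA (horizontal axis, ± standard error from edgeR) for the 10 members, with all 6 libraries (open) and without Ctrl shRNA replicate 2 (filled). The estimates of *Nfe2l2* and *Nqo1* move from 0.05 and -0.25 to 0.53 and 0.13, while those of the other 8 move by less than 0.1.

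In Ctrl shRNA replicate 2 the members did not shift together. Relative to the mean of controls 1 and 3, *Nfe2l2* was higher by 1.16 and *Nqo1* by 0.95 on the log2 scale, while the other 8 ranged from -0.24 for *Gsr* to 0.12 for *Gclm*. The median over all genes tested was -0.05. Of the 15307 genes, 87.3% had a smaller value than *Nfe2l2* and 84.3% a smaller one than *Nqo1*. The spread of *Nfe2l2* and *Nqo1* in the all-library fit, and its large standard errors of 0.33 and 0.27, came with this library.

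Ratios between members within a library do not depend on how libraries are scaled, and 3 of them are given as a description, chosen after the values were seen. The ratio of *Nfe2l2* to *Keap1* per base of length was 6.32, 15.4 and 6.19 in the controls and 8.01, 11.1 and 8.66 in the knockdown samples. The groups overlapped through Ctrl shRNA replicate 2 alone. The ratio of *Nqo1* to *Nfe2l2* was 0.299, 0.249 and 0.275 in the controls and 0.227, 0.199 and 0.231 in the knockdown samples, so that all 3 knockdown samples were below all 3 controls. The ratio of *Gclm* to *Gclc* was 0.266, 0.312 and 0.269 in the controls and 0.307, 0.317 and 0.301 in the knockdown samples, where again Ctrl shRNA replicate 2 overlapped the knockdown range.

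**Figure D3:**
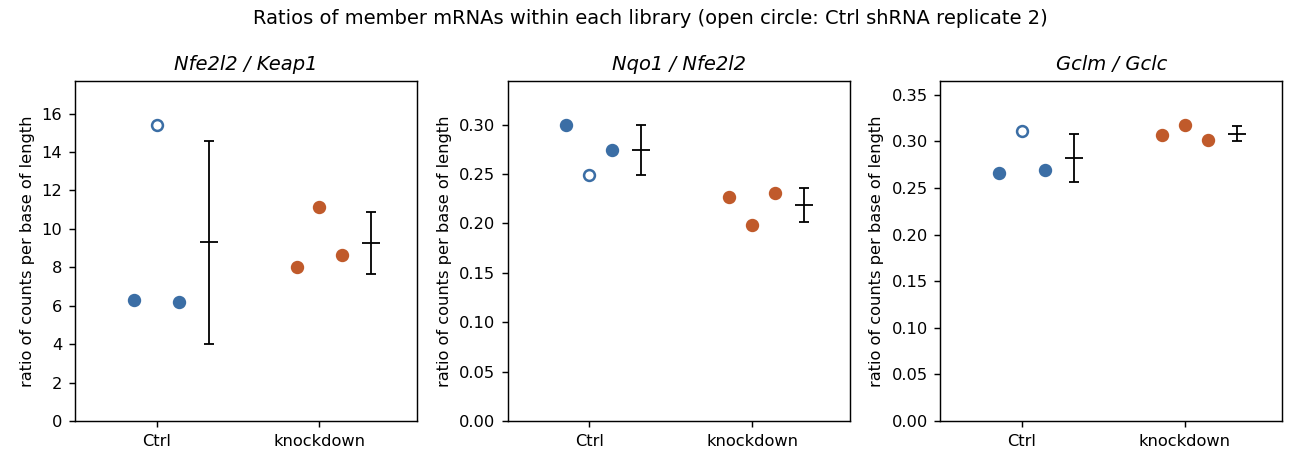
Ratios of counts per base of gene length between 2 members within each library (vertical axes from 0), with group mean ± SD. For *Nqo1* over *Nfe2l2* the knockdown libraries lie between 0.199 and 0.231, below the 3 controls, and for the other ratios the open circle, Ctrl shRNA replicate 2, lies within or above the knockdown range.

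The rest of the pathway was followed in 6 wider lists of 104 genes, of which 93 were tested. With all libraries 0 were called higher and 1 lower by edgeR's test, and 13 and 8 had an unadjusted p under 0.05, against the background of 7.47% and 6.65%. Without Ctrl shRNA replicate 2, 2 were called higher and 3 lower, against 1.11% and 0.675% of all genes. DESeq2 with all libraries called 7 and 3, against 1.55% and 0.958%.

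In the list of NRF2 control genes, which holds its DNA-binding partners, competitors and the ubiquitin machinery, 11 of 14 tested genes had a difference above 0, against 48.7% of all genes, the median being 0.17 (log2) against -0.01, and none was called by edgeR in either fit. The genes for the small MAF partners of NRF2, picked once their values were known, had every knockdown sample above every control. *Mafg* had log2 fold changes of 0.37 and, without Ctrl shRNA replicate 2, 0.27. *Mafk* had 0.46 and 0.40, and *Maff* had 0.53 and 0.35. Without that library edgeR gave them adjusted p of 0.115, 0.0712 and 0.0819, and DESeq2 called *Mafk* alone of these with all libraries (adjusted p = 0.0425). *Bach2*, a repressor that competes for the same elements, had the highest value of the list, 0.75 with all libraries and 0.63 without Ctrl shRNA replicate 2 (edgeR adjusted p = 0.256 and 0.0870), at a mean of 5.21 CPM in the controls, and DESeq2 called it with all libraries. *Rbx1*, the RING subunit of the ligase that degrades NRF2, had the lowest. It measured 103, 477 and 154 CPM across controls, against 108, 94.2 and 104 CPM after knockdown, and its change went from -1.26 to -0.34 without Ctrl shRNA replicate 2.

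Of the 9 thioredoxin genes, 4 had a difference above 0 with all libraries, and edgeR called 0 higher and 1 lower there and 1 higher and 1 lower without Ctrl shRNA replicate 2. Over all genes tested, 48.7% had a difference above 0, and the shares called higher and lower were 0.0588% and 0.00653% in the first fit and 1.11% and 0.675% in the second. *Txnrd1*, the cytosolic thioredoxin reductase and a classical NRF2 target, measured 637, 556 and 626 CPM across controls, against 876, 818 and 882 CPM after knockdown. It rose by 0.43 on the log2 scale without Ctrl shRNA replicate 2 (SE 0.07, edgeR adjusted p = 0.0211). With all libraries its 0.50 was called by DESeq2 (adjusted p = 0.00199) and not by edgeR (adjusted p = 0.227). *Txnip*, which encodes an inhibitor of thioredoxin, fell in both edgeR fits, from 166 ± 1.67 to 74.1 ± 3.73 CPM (SD, n = 3 each), with log2 fold changes of -1.16 and -1.17 (edgeR adjusted p = 0.0164 and 0.00021). The value stayed between -1.20 and -0.99 under all 17 alternatives, but edgeR no longer called it with library size only, with the replicate number as a block, or when any 1 of the other 5 libraries was left out (adjusted p from 0.0709 to 0.630). *Prdx1*, a peroxiredoxin, measured 759, 4766 and 1096 CPM across controls, against 816, 736 and 796 CPM after knockdown. Its log2 fold change of -1.49 was the lowest of the 9 thioredoxin genes with all libraries and was -0.25 without Ctrl shRNA replicate 2, with neither past the threshold.

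Of 28 tested glutathione genes other than the members, edgeR called 0 with all libraries, against 0.0588% of all genes called higher and 0.00653% lower. At an unadjusted p under 0.05, 0 were higher and 5 lower, against 7.47% and 6.65% of all genes. Differences above 0 were seen in 2 of the 28, against 48.7% of all genes, and the median was -0.87 (log2). In Ctrl shRNA replicate 2, 24 of the 28 were higher than in the mean of the other controls, by a median of 1.44 on the log2 scale, against 7034 of all 15307 genes tested. Without that library the median was -0.24, and 11 of the 28 had every knockdown sample below both controls, against 17.3% of all genes tested. Differences above 0 were then seen in 6 of the 28, against 47.3% of all genes. In that edgeR fit 1 was higher and 10 were lower at an unadjusted p under 0.05, against 9.54% and 10.3%. The tested genes of this list were short, with a median length of 1702 bases against 3841 for all genes tested. Across 14636 genes, which are not replicates, the shift in Ctrl shRNA replicate 2 and gene length had a Spearman correlation of -0.29. These were the tested genes with a count both there and in the other controls. Whether length plays a part was not tested. *Chac1*, which encodes an enzyme that degrades glutathione, measured 19.96, 16.6 and 19.5 CPM across controls, against 10.1, 11.1 and 8.53 CPM after knockdown. It fell by 1.00 on the log2 scale without Ctrl shRNA replicate 2 (edgeR adjusted p = 0.0115), against -0.92 with all libraries, which DESeq2 called (adjusted p = 0.000126) and edgeR did not (adjusted p = 0.155). *Gstt1*, a glutathione transferase gene, fell by 0.58 without that library (edgeR adjusted p = 0.0185). With all libraries its log2 fold change was -1.20 and was not called (edgeR adjusted p = 0.339), Ctrl shRNA replicate 2 being at 102 CPM against 39.6 and 37.9 in the other controls. *Mgst2* had the lowest value of the list with all libraries, -2.36, and -1.12 without Ctrl shRNA replicate 2 (edgeR adjusted p = 0.329 and 0.0818; DESeq2 adjusted p = 0.0262 with all libraries). *Gss*, glutathione synthetase, had the highest with all libraries, 0.19. Without Ctrl shRNA replicate 2 it had 0.04 and was no longer the highest. *Slc7a11*, the cystine importer and an NRF2 target singled out after its values were seen, had -0.35 and -0.25, with overlapping groups.

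Among 42 tested NADPH, detoxification and iron genes, edgeR called 0 with all libraries and 1 without Ctrl shRNA replicate 2, and DESeq2 called 3 with all libraries, namely *Pgd*, *Abcc1* and *Abcc4*. All of these calls were higher in knockdown samples, where the shares over all genes were 0.0588%, 1.11% and 1.55%. *Abcc1*, an exporter of glutathione conjugates, measured 91.3, 76.8 and 78.9 CPM across controls, against 113, 118 and 117 CPM after knockdown. It rose by 0.44 on the log2 scale in that fit (edgeR adjusted p = 0.0387), and its 0.49 with all libraries was called by DESeq2 (adjusted p = 0.00741) but not by edgeR (adjusted p = 0.179). *Pgd*, the pentose phosphate enzyme that follows *G6pdx*, differed by 0.41 and 0.33 on the log2 scale (edgeR adjusted p = 0.245 and 0.0558; DESeq2 adjusted p = 0.0420 with all libraries), and every knockdown sample was above every control. At the other end of these lists, *Nnt* had -0.46 and -0.54 and *Abcc3* -0.95 and -0.20, all from genes with under 2 CPM in the knockdown samples. *Fth1*, the ferritin heavy chain and an NRF2 target, turned from -0.84 to 0.15 when Ctrl shRNA replicate 2, at 3849 CPM against 963 in both other controls, was left out. *Abcb6*, with no count in that library, turned from 0.37 to -0.19.

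**Figure D4:**
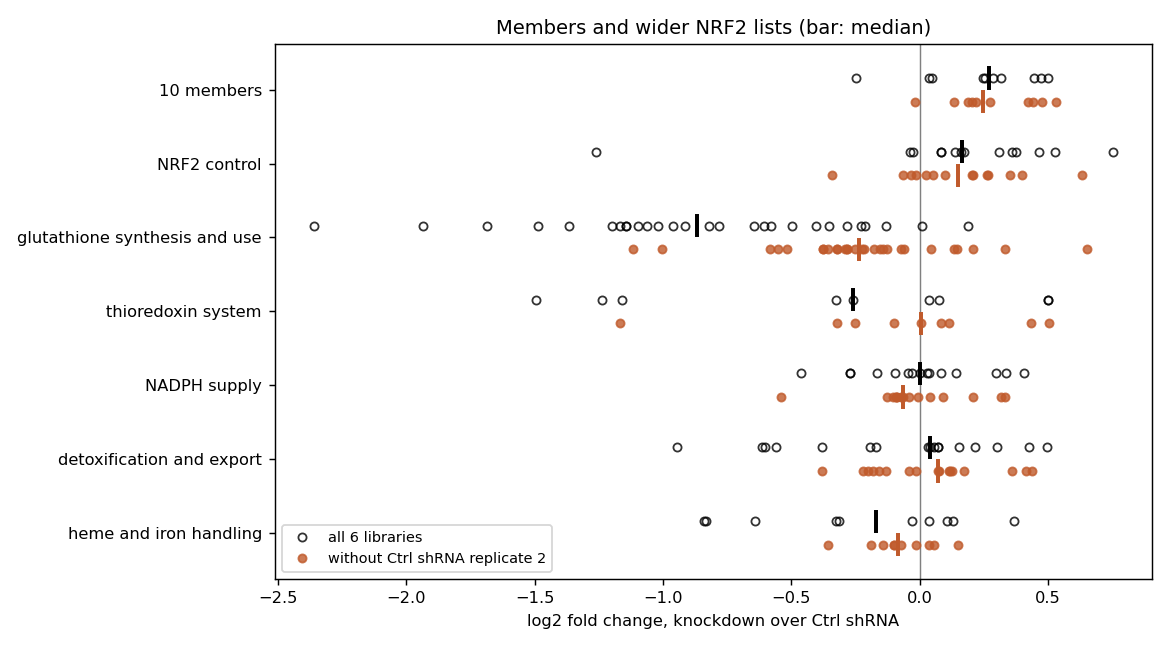
Log2 fold change of knockdown over Ctrl shRNA (horizontal axis) for the 10 members and the tested genes of 6 wider lists, one point per gene and a bar at the median, with all 6 libraries (open) and without Ctrl shRNA replicate 2 (filled). The median of the members is 0.27 and 0.25 in the 2 fits, and that of the glutathione list moves from -0.87 to -0.24.

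For a single gene, an exact permutation test of 3 samples against 3 cannot give a two-sided p under 0.1, which the 7 members without overlap reached; with 2 controls the smallest p is 0.2. When libraries were scaled by total count alone, the median log2 fold change of all genes was 0.16 and that of the members 0.43, and under the other scalings tried the members' median was 0.26 to 0.27.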

How the data were processed

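RNA-seq was analysed in 6 libraries of MLE12 cells, grouped by the treatment labels. The authors deposited whole-number counts per Ensembl gene, not normalized, and FPKM values, which scale the counts to gene length and to a library size of the authors' own (0.716 to 1.08 times the total count). The submitters' processing notes name HISAT2 2.0.5, StringTie 1.3.3b, featureCounts 1.5.0-p3 and the build mm10 (GRCm38); strand use is not given in the sources used here. All 10 members had the coordinates of GENCODE M21.

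Genes with low counts were removed by filterByExpr, TMM gave the scaling factors, and the test was that of edgeR 4.0.16 (quasi-likelihood, no covariate, R 4.3.3) over all genes, with Benjamini-Hochberg adjusted p under 0.05 as the threshold. Standard errors are the log2 fold change divided by the square root of F. *Nnt* has 2 Ensembl IDs, of which the one with more counts was used. CPM values use the TMM factors of all 6 libraries. The fit was repeated without Ctrl shRNA replicate 2. DESeq2 1.42.0, limma 3.58.1 (voom with quality weights, and log2(FPKM + 1) or log2(FPKM + 0.1) for genes with a mean FPKM of at least 0.5) and other scalings, filters and sample sets were alternatives, 17 in all. Scripts were tested on simulated data, where, with all libraries, DESeq2 and limma on FPKM values made a larger share of false calls than the threshold allows and edgeR did not. Without Ctrl shRNA replicate 2, edgeR, DESeq2 and limma on FPKM values all exceeded it, edgeR by the least of these. Each sample set was simulated once, with the same mean for a gene in all libraries of a group. The simulation therefore cannot show how the tools behave with a library that stands apart. No pair of libraries agreed within sampling noise (chi-square per degree of freedom at least 6.13). Figures were drawn with matplotlib 3.10.9.

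Members and lists were chosen with earlier results of these data known. Beside the members, the text names each wider-list gene past the threshold in either edgeR fit and the highest and lowest of each list with all libraries. Protein and metabolite data were not used here.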

Additional observations from a re-analysis of the deposited data

How the results depend on the processing

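Which samples and which tool were used set the number of calls. With all libraries edgeR called 0 members, 9 higher and 1 lower genes, and 0 higher and 1 lower genes of the wider lists. When each library was left out in turn, the calls ran from 0 to 175 higher and from 0 to 106 lower genes, from 0 to 4 higher members, and from 0 to 2 higher and from 0 to 3 lower genes of the wider lists. The upper values came without Ctrl shRNA replicate 2. Without Ctrl shRNA replicate 1 edgeR called 1 higher gene, and with another library omitted 0, with 4 to 7 members higher at an unadjusted p under 0.05 in edgeR in these 5 fits. Over all genes, 603 to 1609 were higher and 333 to 2171 lower at that level, with 15710 tested in the fit without Ctrl shRNA replicate 1. DESeq2 called 218 higher and 135 lower genes, 4 members, and 7 higher and 3 lower genes of the wider lists. Without Ctrl shRNA replicate 2 these DESeq2 numbers were 490, 330, 5, 12 and 5. Limma with sample quality weights gave 1327, 971, 7, 14 and 8. With library size only, edgeR called 1 higher and 0 lower genes and 0 of the wider lists. Without a count filter 3 genes were lower, with log2(FPKM + 1) 2, and with log2(FPKM + 0.1) 3. The cause of these differences was not tested.

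The sign held under all 17 alternatives for *Hmox1*, *Gclc*, *Gclm*, *Srxn1*, *Gsr*, *G6pdx* and *Osgin1*. Leaving out 1 library gave log2 fold changes from -0.17 to 0.53 for *Nfe2l2*, from -0.042 to 0.11 for *Keap1* and from -0.45 to 0.13 for *Nqo1*, from -0.19 to 0.80 for *Abcb6* and from -1.17 to 0.15 for *Fth1*. *Nqo1* was at 0.013 with library size only. With DESeq2 and Ctrl shRNA replicate 2 left out, *Keap1* was at -0.012, *Nqo1* at 0.14, *Abcb6* at -0.18 and *Fth1* at 0.16. With sample quality weights *Nqo1* was at 0.18, *Abcb6* at -0.094 and *Fth1* at 0.083.

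Same-numbered libraries did not deviate together (correlations of -0.21, -0.16 and 0.02 across genes). With 3 libraries per group, this cannot show whether same-numbered samples were handled together, and the labels do not say. With the replicate number as a block, edgeR called 0 higher and 0 lower genes, 0 members and 0 genes of the wider lists, against 1133 genes at an unadjusted p under 0.05.

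Counts were low for *Abcb6*, *Abcc3* and *Nnt*, at 0 to 62 per library, while the members had 955 or more in every library. The 1 lower gene of the wider lists with all libraries was *Txnip*, which was called under 10 of the 17 alternatives.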

Other observations

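Of the 93 tested genes of the wider lists, 16 had every knockdown sample above every control and 16 had every one below. The shares over all genes tested were 14.7% and 10.7%. Some of these genes, chosen after their values were seen, are given here, first those above. *Abcc4*, an exporter of organic anions, had log2 fold changes of 0.43 with all libraries and 0.41 without Ctrl shRNA replicate 2 (adjusted p = 0.224 and 0.0704 from edgeR's test). *Txnrd3*, a thioredoxin reductase, had 0.50 in both fits (adjusted p = 0.245 and 0.0754 from edgeR's test). DESeq2 with all libraries gave an adjusted p of 0.0297 for *Abcc4* and 0.0300 for *Txnrd3*. *Me1*, the cytosolic malic enzyme that yields NADPH, had 0.30 and 0.32, *Nadk*, which makes NADP from NAD, had 0.34 and 0.21, and the carbonyl reductase gene *Cbr3* had 0.30 and 0.36, with none past the threshold in edgeR. In the opposite direction, *Ptgr1*, a reductase of lipid aldehydes and prostaglandins, had -0.60 and -0.38, and *Blvrb*, a biliverdin reductase, had -0.64 and -0.36, with every knockdown sample below every control and neither called by edgeR.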
